A study of Rattus norvegicus with 18 samples.

Results

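The lungs compared here were taken 20 h after the last smoke session, and their 6 arrays were chosen by the recovery time in the sample titles, out of 18 arrays in the series. On each of 2 Affymetrix array types, A and B, there was 1 array for 300 µg total particulate matter (TPM) of cigarette smoke per litre, 1 array for 600 µg TPM per litre, and 1 array for sham exposure, all from male Sprague-Dawley rats. Mainstream smoke of the reference cigarette 2R4F was given nose-only, and every group, sham included, went through 13 weeks of sessions lasting 2 h, on 5 days of each week. The rats' age, what the sham rats breathed, and how many rats stood behind an array are not given in the sources used here. Both smoke levels were set against sham within each array type, and a probe set was counted only where both lay on the same side of sham on the scale log2(signal + 50). The arrays at 2 and 6 h after the last session, in the same groups, served to check the changes and to test whether the smoke effect differed between times.

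For the 4 smoke arrays at 20 h, a further label on the exposure reads sham, whereas title and source name smoke. The groups below follow the titles, so every smoke value at 20 h rests on arrays whose labels conflict. With 1 sham array at 20 h on each type, an effect of smoke and a deviation of that array cannot be told apart within these 3 arrays. The sham arrays of the other times are therefore given beside the results.

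Cigarette smoke carries aromatic hydrocarbons that bind the aryl hydrocarbon receptor, a transcription factor that switches on enzymes which oxidise and clear them. Particles that reach the alveoli are taken up by macrophages and broken down in their lysosomes, while the airway lining secretes proteins that bind iron, chitin or microbes. The lung also keeps circadian time. The activators BMAL1, CLOCK and NPAS2 drive the Per and Nr1d genes, whose products repress the loop, and output factors such as DBP and TEF follow the rhythm, so the level of each of these genes depends on the hour of sampling.

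The deposited signals share a common trimmed mean, 500.09 to 500.1 on every array, and how precise the values below are is limited by how few arrays there are. Median signals at 20 h on type A were 278.5 at 300 µg/l and 266.7 at 600 µg/l, against 270.4 in sham, and on type B 315.3 and 329.2, against 331.7 in sham. The 3'/5' signal ratio of hexokinase, a measure of how complete the labelled RNA was, read 4.72 on the type B array at 300 µg/l and 20 h, and 2.56 to 3.68 on the other type B arrays. On type A it read 4.52 on the sham array at 6 h and 2.62 to 3.27 on the others. The sham array at 6 h also lay furthest from the mean array of its type, by a median absolute deviation of 0.117 (log2) on type A, against 0.084 to 0.1 on the others, and of 0.162 on type B, against 0.121 to 0.142. The type B sham array at 2 h stood apart as well: across 9737 probe sets its deviations correlated with those of the type B array at 300 µg/l and 2 h (r = 0.56, given as a description). Whether these 2 arrays were exchanged or mixed was not tested. Lung markers were bright. The 5 alveolar type 2 markers, Sftpc and Sftpb among them, summed to 62830.0 and 69376.9 in smoke, against 64271.4 in sham, and the 4 alveolar type 1 markers to 23835.8 and 23987.7 in smoke, against 25876.3 in sham. In sham at 2 and 6 h the alveolar type 2 markers summed to 58143.9 and 66975.0. The alveolar type 1 markers summed to 23595.1 and 25584.2 there, so sham at 2 h lay below both smoke arrays at 20 h.

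The first question was which genes still differed between smoke and sham 20 h after the last session. No gene passed the test against the sham array at 20 h, and 1 gene, the acidic chitinase Chia, passed when the sham arrays of all 3 times served as controls. In limma's moderated test with Benjamini-Hochberg adjustment, 0 of 19638 probe sets (0%) had an adjusted p under 0.05, and the smallest was 0.22. By unadjusted p under 0.05 there were 1144, of which 655 were higher and 489 lower in smoke. Against the 3 sham arrays of each type, 1 of 19638 probe sets (0.00509%) passed. The first test takes its spread from the difference between both smoke levels at each time and holds no measured variation of sham arrays, so its SEs, p-values and intervals leave that variation out.

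As a description without a test, 242 probe sets (1.23%) lay at least 1.5-fold above sham at 20 h at both smoke levels, and 114 (0.581%) lay at least 1.5-fold below. Both levels are set against the same sham array. Sham at 20 h was the lowest of the 3 sham arrays for 81.0% of the 242 and for 31.0% of all probe sets tested, and the highest of the 3 for 69.3% of the 114 and for 29.6% of all. When both smoke arrays also had to lie outside all 3 sham arrays, 96 probe sets (0.489%) were higher and 68 (0.346%) lower. Without the type B sham array at 2 h these counts were 141 and 85, and without both sham arrays at 6 h they were 141 and 87. Of the 242, 158 had a sham signal at 20 h under the level used to filter dim probe sets (183.8 on type A, 238.7 on type B), and of the 114, 52 had both smoke signals under it. Just inside the 1.5-fold limit the smaller change of the pair was 0.588 (log2) among higher and 0.587 among lower probe sets, and just outside it 0.583 and 0.584. Smoke also lay above sham at both 2 and 6 h in 31.8% of the 242 and in 24.5% of all tested, and below at both times in 31.6% of the 114 and in 27.3% of all.

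**Figure D1:**
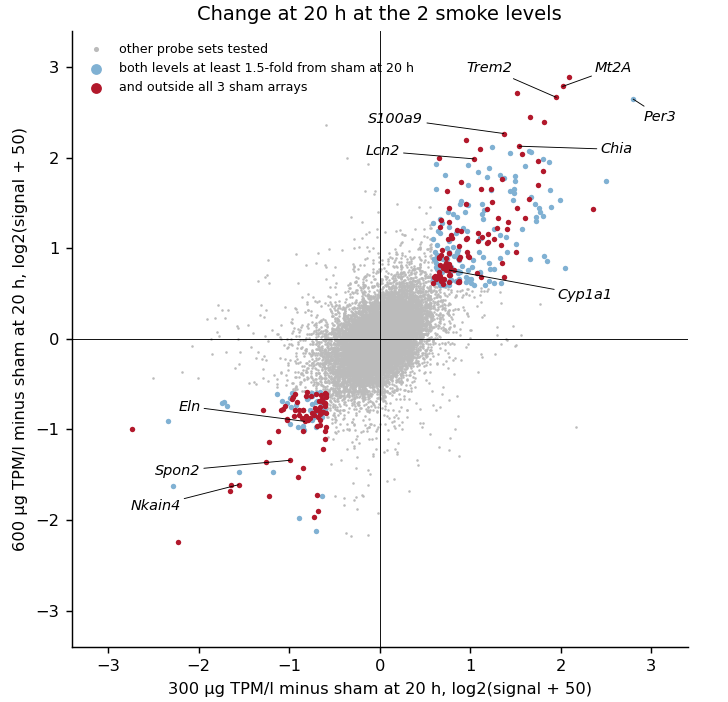
Change from sham at 20 h of each of 19638 probe sets, in log2(signal + 50), at 300 µg TPM/l (x axis) and at 600 µg TPM/l (y axis). Blue points are at least 1.5-fold from sham in the same direction at both levels, red points also lie outside all 3 sham arrays of their type, and grey points are the rest. Both axes share the sham array at 20 h. Mt2A, Trem2, Chia and S100a9 lie at the upper right in red, and Per3 lies there in blue, within the range of the sham arrays.

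Among mucosal defence genes, Chia stood well apart from sham. It encodes the acidic chitinase that cleaves chitin in the airways, and its signal was 4856.6 and 7358.2 at 300 and 600 µg/l, against 1642.6 in sham at 20 h, with 1492.7 and 1798.3 in sham at 2 and 6 h. Both smoke arrays lay far above all 3 sham arrays, the highest of which was 1.21 times the lowest. The change was 3.56-fold (log2 1.83, SE 0.28, 95% interval 1.21 to 2.46, adjusted p = 0.22). Against all 3 sham arrays Chia rose by log2 1.83 (SE 0.19, adjusted p = 0.0178 by limma). That call was lost when any 1 of the 3 sham arrays was left out.

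Lcn2 encodes lipocalin 2, which binds bacterial siderophores and so withholds iron. It read 6136.2 and 11934.7 at 300 and 600 µg/l, against 2964.4 in sham (log2 1.51, SE 0.32, adjusted p = 0.392), with 3135.2 and 2619.7 in sham at 2 and 6 h. Complement C3, on which the complement pathways converge, read 4870.5 and 7759.1 at 300 and 600 µg/l, against 3268.3 in sham (log2 0.90, SE 0.26, adjusted p = 0.648). For both genes the smoke arrays lay above all sham arrays, and 600 µg/l lay further from sham than 300 µg/l. Slc26a4, which encodes the anion exchanger pendrin, read 185.5 and 513.5 at 300 and 600 µg/l, against 72.3 in sham (log2 1.57, SE 0.44, adjusted p = 0.612), and all 3 sham arrays were under the filter's level. Plet1, measured on type B, read 3086.0 and 5945.5 at 300 and 600 µg/l, against 1535.8 in sham at 20 h (log2 1.45, SE 0.31, adjusted p = 0.356), but the type B sham array at 2 h that stood apart read 4351.0. Its probe set on type A read 1765.7 and 3329.2 in smoke, against 1033.7 in sham (log2 1.19, SE 0.35, adjusted p = 0.662), and a dimmer one on type B read 2250.2 and 2703.2 in smoke, against 967.8 in sham (log2 1.31, SE 0.20, adjusted p = 0.22). For both of these, smoke lay above all 3 sham arrays, although on type B the sham array at 2 h, 2201.9, came close. Bpifa1, a secreted airway defence protein also on type B, lay on the other side at 364.9 and 293.8 in smoke, against 625.5 in sham (log2 -0.84, SE 0.22, adjusted p = 0.569). The type B sham array at 2 h that stood apart, 360.6, lay between the smoke signals. Of 13 measured genes of the mucosal defence list, 0 passed the test, 8 were higher and 1 lower than sham in both smoke arrays, and 6 lay above and 0 below all 3 sham arrays. Of all probe sets, 32.0% were higher and 33.4% lower than sham in both smoke arrays, and of all genes 33.1% and 32.7%. The list's median change was 0.30, against 0 over the 10165 genes measured, of which 10.2% lay above and 11.1% below all 3 sham arrays. Counted by probe set these shares were 9.22% and 10.8%. The shares over all genes serve for every list below.

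Neutrophil genes were split between higher and unclear ones. S100a9, a calcium-binding protein abundant in neutrophils, read 2752.3 and 5161.2 at 300 and 600 µg/l, against 1033.4 in sham (log2 1.82, SE 0.55, adjusted p = 0.669), with 967.8 and 694.7 in sham at 2 and 6 h. Its partner S100a8 read 550.1 and 637.9 at 300 and 600 µg/l, against 613.5 in sham (log2 -0.05, SE 0.44, adjusted p = 0.996), so that smoke lay on both sides of sham at 20 h. Against the sham arrays at 2 and 6 h only, its change was 1.14, so its place depends on the sham array used. The neutrophil-attracting chemokine Cxcl1 read 702.4 and 1631.6 at 300 and 600 µg/l, against 781.4 in sham (log2 0.44, SE 0.44, adjusted p = 0.996), and its 300 µg/l array lay below sham. Cxcl3, a related chemokine on type B, read 16333.2 and 18671.4 at 300 and 600 µg/l, against 12844.4 in sham (log2 0.44, SE 0.18, adjusted p = 0.832), above all sham arrays. The 4 Cxcl3 probe sets on type A disagreed. One read 167.1 and 503.3 in smoke, against 87.9 in sham (log2 1.33, SE 0.46, adjusted p = 0.71), above all sham arrays, and the others had changes of 0.41, 0.04 and -0.27. The inflammatory cytokine gene Il1b lay above all sham arrays as well, at 531.9 and 481.5 in smoke, against 342.4 in sham (log2 0.50, SE 0.15, adjusted p = 0.664). Of the 7 genes measured in the list of neutrophil recruitment and products, 4 lay above and 0 below all 3 sham arrays and 0 passed, with a median change of 0.44. Over all genes, 10.2% lay above and 11.1% below.

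Of 17 CC chemokine and cytokine genes, 6 lay above and 2 below all sham arrays, 0 passed, and the median was 0.10. Ccl3, a chemokine of macrophages, had the smallest p of the list at 483.9 and 690.8 in smoke, against 321.8 in sham (log2 0.76, SE 0.19, adjusted p = 0.531). Il18, an interleukin activated by the inflammasome, read 824.2 and 955.1 in smoke, against 630.3 in sham (log2 0.46, SE 0.13, adjusted p = 0.613). The sham arrays for Il18 lay close together, between 620.1 and 630.3. The rank of Ccl3 by p holds for the brightest probe set of each gene. A dimmer probe set of Ccl6 on type B had a smaller p, at 1016.6 and 1720.4 in smoke, against 494.9 in sham (log2 1.33, SE 0.32). It lay within the sham range, as the type B sham array at 2 h that stood apart read 1168.9.

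Macrophage and lysosome genes lay above sham for the most part. Of 24 measured genes of that list, 17 were higher and 2 lower than sham in both smoke arrays, and 16 lay above and 2 below all 3 sham arrays. Over all genes, 33.1% were higher and 32.7% lower in both smoke arrays, and 10.2% lay above and 11.1% below all 3 sham arrays. None of the 24 passed the test (limma), and the list's median change was 0.34. In whole lung, fewer cells of a type and less RNA per cell cannot be told apart, and the same holds for more cells and more RNA. Gpnmb, a glycoprotein of lysosome-rich macrophages, read 5340.3 and 8655.6 at 300 and 600 µg/l, against 3140.2 in sham (log2 1.10, SE 0.24, adjusted p = 0.393), with 2857.0 and 2955.5 in sham at 2 and 6 h. The endosomal macrophage protein gene Cd68 read 1770.3 and 2672.4 at 300 and 600 µg/l, against 1105.5 in sham (log2 0.95, SE 0.21, adjusted p = 0.409). For both genes every smoke array lay above every sham array at all 3 times. Ctsd, the lysosomal protease cathepsin D, read 8761.6 and 11027.4 in smoke, against 5884.9 in sham (log2 0.74, SE 0.15, adjusted p = 0.356). The lysosomal amidase gene Naaa read 2979.3 and 3543.2 in smoke, against 1838.7 in sham (log2 0.80, SE 0.18, adjusted p = 0.4). Galectin 3, Lgals3, which macrophages secrete, read 6566.9 and 8326.3 in smoke, against 4956.2 in sham (log2 0.57, SE 0.14, adjusted p = 0.502). Against all 3 sham arrays, Gpnmb, Ctsd and Naaa had changes of 1.18, 0.83 and 0.90, each with an adjusted p of 0.0677.

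Other members of the list were less clear. Trem2, a lipid-sensing receptor of macrophages measured on type B, read 561.8 and 963.1 at 300 and 600 µg/l, against 108.8 in sham at 20 h, and the sham value was under the filter's level. The sham arrays at 2 and 6 h read 375.2 and 303.7, the first on the type B array that stood apart. The change was log2 2.31 (SE 0.48, adjusted p = 0.356) against sham at 20 h and 1.45 (adjusted p = 0.588) against all 3. Cathepsin K, Ctsk, a collagen-degrading protease, read 221.4 and 432.6 in smoke, against 95.1 in sham (log2 1.32, SE 0.37, adjusted p = 0.61), and all its sham signals were dim. The macrophage elastase Mmp12, from the protease list, differed between the levels, at 155.7 and 607.3 at 300 and 600 µg/l, against 162.4 in sham (log2 0.79, SE 0.66, adjusted p = 0.996). Ctsl and Apoe were the 2 genes of the macrophage list below all sham arrays, by log2 -0.08 and -0.17, and were picked out after their values were seen.

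The distance from sham was larger at 600 than at 300 µg/l for 22 of the 24 macrophage and lysosome genes, whose median change was 0.19 at 300 µg/l and 0.46 at 600 µg/l. With 1 array per level and type this describes these arrays only. The share was 59.9% among the 242 probe sets at least 1.5-fold higher at both levels, and 51.5% among all probe sets above sham at both. Only 17 of the 24 genes were above sham at both levels, so these shares cover an unlike set. The share over all genes is not given here. The macrophage markers Cd68 and Gpnmb, 2 of 4 fixed markers on the arrays, summed to 7110.6 and 11328.0 in smoke, against 4245.7 in sham. The 3 neutrophil markers on the arrays, of 4, summed to 3425.8 and 5906.6 in smoke, against 1748.3 in sham. Most of that rise came from S100a9, at 2752.3 and 5161.2 in smoke, against 1033.4 in sham. S100a8 lay on both sides of sham at 20 h, so the sum mainly describes 1 gene. No marker of either cell type was near 0 in every array at 20 h, but only 2 of the 3 neutrophil markers passed the filter for dim probe sets. The part of these cells in the other changes was not tested.

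**Figure D2:**
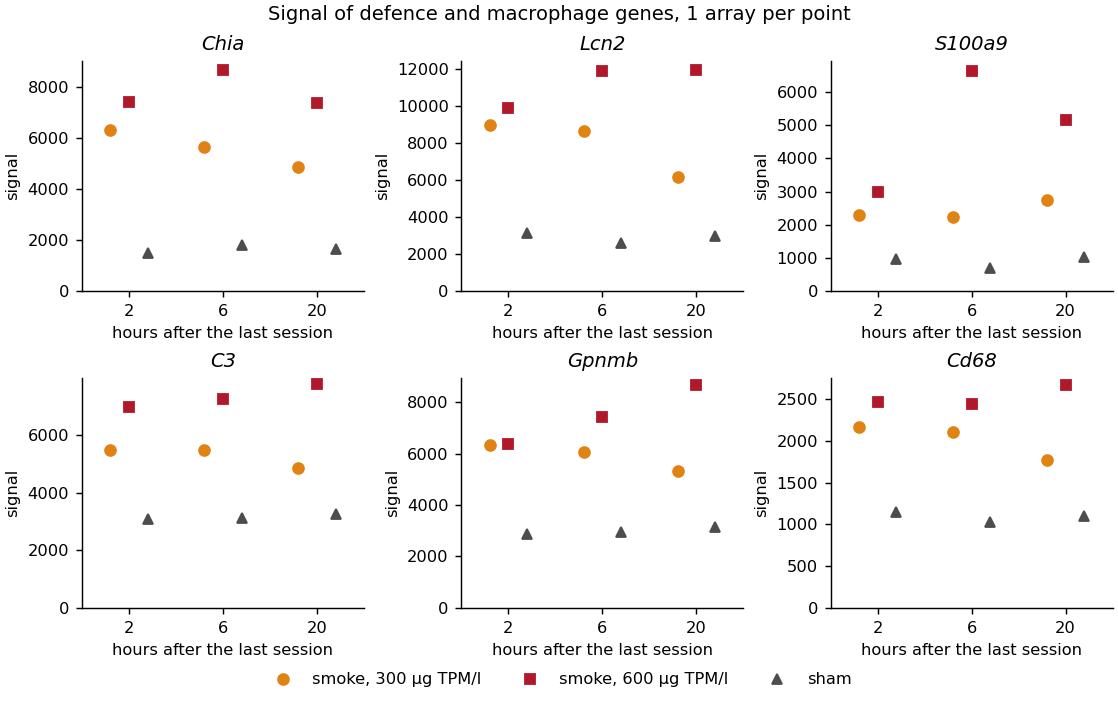
Signal (linear scale, y axis) of 6 type A genes on each array at 2, 6 and 20 h after the last session (x axis). Each point is 1 array, with smoke at 300 µg TPM/l, smoke at 600 µg TPM/l and sham from left to right. At 20 h Chia read 4856.6 and 7358.2 in smoke, against 1642.6 in sham, and in each of the 6 panels both smoke points lie above the sham point at each time.

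The next question was whether these effects at 20 h differed from those at 2 and 6 h. In the test of the difference (smoke effect at 20 h minus the mean effect at 2 and 6 h), 1 of 19638 probe sets (0.00509%) passed, and it was none of the defence or macrophage genes. For Chia the effect was log2 2.15 at 2 h, 1.93 at 6 h and 1.83 at 20 h, and the difference was -0.21 (95% interval -0.97 to 0.56). At 2 h the rise of Chia passed the test (adjusted p = 0.0448 by limma). For Lcn2 the effects at the 3 times were 1.57, 1.93 and 1.51, with a difference of -0.24 (-1.14 to 0.67). Gpnmb had 1.14, 1.17 and 1.10, with a difference of -0.05 (-0.71 to 0.61), and Cd68 had 0.98, 1.11 and 0.95, with a difference of -0.10 (-0.70 to 0.50). Each of these intervals spans 0, and each is wide enough to hold a difference of either sign.

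The target genes of the aryl hydrocarbon receptor gave another picture. Cyp1a1, the P450 enzyme that oxidises aromatic hydrocarbons and the best known target of the receptor, read 8795.0 and 9462.7 at 300 and 600 µg/l 2 h after the last session, against 154.4 in sham. At 6 h it read 2789.3 and 2122.4 in smoke, against 110.8 in sham, and at 20 h 209.3 and 207.0 in smoke, against 101.7 in sham. Both smoke arrays at 20 h still lay above all 3 sham arrays, though close to them. The smoke effect was log2 5.49 at 2 h (adjusted p = 3.2e-06), 3.95 at 6 h (adjusted p = 5.4e-05) and 0.77 at 20 h (SE 0.16, adjusted p = 0.381), all by limma. The effect at 20 h differed from the mean of the earlier effects by -3.95 (SE 0.20, 95% interval -4.41 to -3.50, adjusted p = 0.0003), and Cyp1a1 was the 1 probe set that passed that test. It differed by -4.72 from the effect at 2 h alone (adjusted p = 0.00023) and by -3.18 from that at 6 h alone (adjusted p = 0.00641).

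The other induced enzymes came closer to sham. Aldh3a1, which oxidises aldehydes, read 107.3 and 63.0 at 300 and 600 µg/l, against 89.8 in sham at 20 h (log2 -0.07, SE 0.26, adjusted p = 0.996), all of them dim. At 2 h it had read 1225.1 and 1747.0 in smoke, against 68.4 in sham, and its effect at 20 h differed from that at 2 h by -3.74 (adjusted p = 0.0413 by limma). Against the mean of 2 and 6 h the difference of -2.47 did not pass (SE 0.32, adjusted p = 0.176). The quinone reductase gene Nqo1 read 1412.8 and 1615.9 at 300 and 600 µg/l, against 1389.2 in sham at 20 h (log2 0.12, SE 0.15, adjusted p = 0.996), and its difference from the earlier effects was -1.57 (SE 0.18, adjusted p = 0.146). The P450 gene Cyp1b1 read 570.4 and 546.6 at 300 and 600 µg/l, against 436.8 in sham (log2 0.32, SE 0.20, adjusted p = 0.966), with a difference of -1.09 (SE 0.25, adjusted p = 0.701). At 2 h the effects on Nqo1 and Cyp1b1, log2 2.07 and 2.19, had passed the test against sham (adjusted p = 0.00197 and 0.0101 by limma). Ahrr, the repressor of the receptor, and Tiparp, a further target, had changes of -0.13 and 0.20 at 20 h. The 6 genes of the list had a median effect of 2.13 at 2 h, 0.88 at 6 h and 0.16 at 20 h. At 20 h 4 of the 6 lay above and 0 below all 3 sham arrays, and 0 passed.

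**Figure D3:**
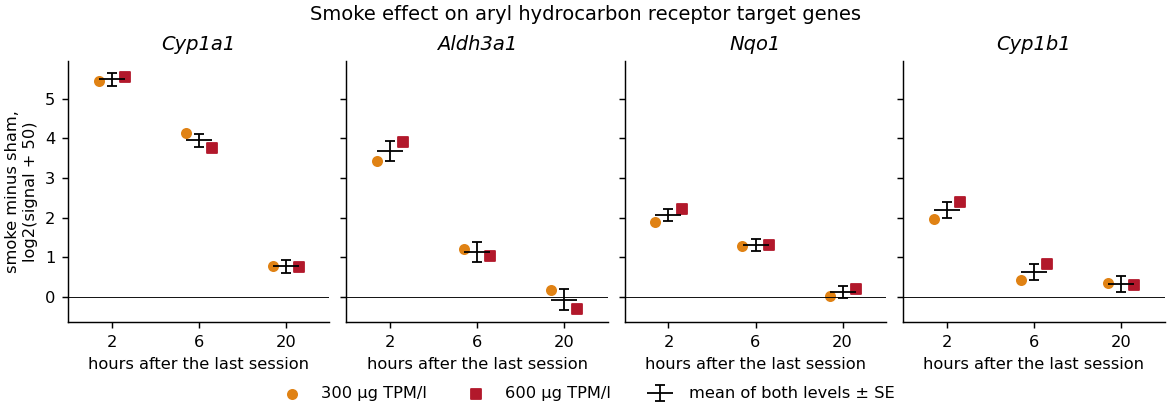
Smoke minus sham in log2(signal + 50) (y axis) at 2, 6 and 20 h after the last session (x axis) for 4 target genes of the aryl hydrocarbon receptor. Circles are 300 µg TPM/l and squares 600 µg TPM/l, 1 array each, and the bars are the mean of both levels ± SE of the fit. Cyp1a1 stands at 5.49, 3.95 and 0.77 at the 3 times, and Aldh3a1 at -0.07 at 20 h.

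The promoters of Cyp1b1 and Nqo1 are shown because both genes had passed at 2 h and stood near sham at 20 h. They are the 250 bases before the gene start on the gene's strand, 5′ to 3′, from RefSeq on rat build GRCr8. Capitals mark the letters GCGTG, the core to which the receptor complex binds, searched on both strands (CACGC on the other). Of 33469 such windows 25.9% hold these letters, so a match is a description of the sequence and shows no binding. Cyp1b1 has 2 matches and Nqo1 has 1.
Cyp1b1 (chr6:21094315-21094564, plus strand): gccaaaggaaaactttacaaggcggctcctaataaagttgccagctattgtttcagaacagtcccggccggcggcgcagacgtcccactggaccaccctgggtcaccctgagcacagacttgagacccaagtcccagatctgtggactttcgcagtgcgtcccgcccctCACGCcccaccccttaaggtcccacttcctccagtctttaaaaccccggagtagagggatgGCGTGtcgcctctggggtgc
Nqo1 (chr19:52220268-52220517, minus strand): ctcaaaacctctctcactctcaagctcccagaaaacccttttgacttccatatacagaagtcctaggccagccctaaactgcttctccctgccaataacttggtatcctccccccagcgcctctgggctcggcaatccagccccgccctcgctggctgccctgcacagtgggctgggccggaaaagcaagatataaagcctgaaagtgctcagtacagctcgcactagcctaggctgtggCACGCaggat

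Genes of glutathione and NADPH supply stood near sham at 20 h by their medians. Over all genes, 10.2% lay above and 11.1% below all 3 sham arrays. Of 18 genes of glutathione synthesis and transfer, 5 lay above and 1 below all 3 sham arrays and 0 passed, and the median effect was 0.46 at 2 h, 0.21 at 6 h and 0.06 at 20 h. Gclc, the catalytic subunit of the enzyme that limits glutathione synthesis, read 389.3 and 446.1 in smoke, against 359.8 in sham (log2 0.19, SE 0.19, adjusted p = 0.996). The glutathione transferase gene Gstm1 read 1304.3 and 979.8 in smoke, against 867.0 in sham (log2 0.36, SE 0.23, adjusted p = 0.966). Of 15 genes of NADPH supply, thioredoxin and carbonyl reduction, 5 lay above and 0 below all sham arrays and 0 passed, with a median of 0.26 at 2 h, 0.27 at 6 h and 0.08 at 20 h. Heme oxygenase 1, Hmox1, which degrades heme, read 384.9 and 647.7 at 300 and 600 µg/l, against 316.3 in sham at 20 h (log2 0.59, SE 0.31, adjusted p = 0.909). Sham at 2 h read 455.2, above the 300 µg/l array at 20 h and below the 600 µg/l array.

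Of the genes named for the smallest p at 20 h, Mt2A had the largest change. It encodes a metallothionein, a small protein that binds zinc, copper and cadmium, and glucocorticoids also induce it. It read 715.7 and 1254.3 at 300 and 600 µg/l, against 138.9 in sham at 20 h, with 579.2 in sham at 2 h and 435.7 in sham at 6 h. The sham signal at 20 h was under the filter's level. The change was log2 2.40 (SE 0.33, adjusted p = 0.22) against sham at 20 h, the lowest of the 3 sham arrays, and 1.37 against all 3 (SE 0.41, adjusted p = 0.578). At the earlier times the smoke effect was log2 1.54 at 2 h and 1.22 at 6 h. The list of metallothionein, heme and iron genes had 3 of 9 members above and 0 below all sham arrays, a median of 0.47, and 0 that passed. Over all genes, 10.2% lay above and 11.1% below. The Mt2A promoter is shown because it holds several copies of the core of the metal response element, in capitals, searched as TGCGCNC and TGCACNC on both strands. Such letters occur in 20.6% of the promoter windows, and Mt2A holds 4 matches. As the promoter was chosen for these matches, they are a description of the sequence and show no binding.
Mt2A (chr19:10838709-10838958, minus strand): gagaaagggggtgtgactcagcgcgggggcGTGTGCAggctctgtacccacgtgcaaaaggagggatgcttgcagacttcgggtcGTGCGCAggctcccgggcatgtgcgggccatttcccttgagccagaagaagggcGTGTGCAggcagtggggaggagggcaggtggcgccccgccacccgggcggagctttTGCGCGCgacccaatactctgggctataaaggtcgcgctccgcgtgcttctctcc

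Bhlhe41, a transcriptional repressor in the clock loop, also had both smoke arrays above all sham arrays. It read 810.3 and 1201.1 at 300 and 600 µg/l, against 395.2 in sham at 20 h, with 517.3 and 617.0 in sham at 2 and 6 h (log2 1.22, SE 0.20, adjusted p = 0.229). The 3 further genes named on the higher side by the smallest p were Dph6, of diphthamide synthesis, Lrrc46, and Nrg2, a growth factor of the neuregulin family. Dph6 read 631.0 and 632.7 in smoke, against 345.5 in sham (log2 0.79, SE 0.14, adjusted p = 0.26), Lrrc46 read 239.7 and 208.2 in smoke, against 70.8 in sham (log2 1.18, SE 0.21, adjusted p = 0.26), and Nrg2, on type B, read 484.7 and 507.9 in smoke, against 103.6 in sham (log2 1.83, SE 0.34, adjusted p = 0.26). For each of the 3, sham at 20 h was the lowest sham array, and for Lrrc46 and Nrg2 its signal was under the filter's level. Sham at 2 and 6 h read 494.3 and 563.3 for Dph6, 136.8 and 197.8 for Lrrc46, and 430.5 and 401.4 for Nrg2. For Nrg2 the array at 2 h was the type B one that stood apart.

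Clock genes had a sham array at 20 h that differed widely from the other sham arrays. Per3, a period gene measured on type B, read 808.6 and 723.7 at 300 and 600 µg/l, against 73.0 in sham at 20 h, with 579.7 and 1025.5 in sham at 2 and 6 h. The highest of these sham signals was 14.1 times the lowest, and the 6 smoke arrays of all times, 304.0 to 808.6, lay between them. The sham signal at 20 h was under the filter's level. The change at 20 h was log2 2.73 (SE 0.38, adjusted p = 0.22), and against all 3 sham arrays it was 0.90 (SE 0.69, adjusted p = 0.929). In a fit of the 20 h arrays alone, with 1 residual degree of freedom, Per3 was the 1 probe set that passed (adjusted p = 0.014 by limma).

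Other repressors and outputs followed the same order of arrays. Nr1d1, the nuclear receptor that represses Bmal1, read 679.7 and 909.7 at 300 and 600 µg/l, against 179.2 in sham at 20 h (log2 1.87, SE 0.47, adjusted p = 0.532). At 6 h it had read 496.5 and 148.8 in smoke, against 1522.5 in sham, on the opposite side. Dbp, an output transcription factor, read 483.6 and 668.5 at 300 and 600 µg/l, against 119.6 in sham at 20 h (log2 1.87, SE 0.42, adjusted p = 0.4), and at 6 h 568.4 and 203.4 in smoke, against 1303.0 in sham. Both genes had their lowest sham signal at 20 h and their highest at 6 h. Tef, an output factor related to Dbp on type B, read 4003.5 and 3875.9 in smoke, against 2312.6 in sham at 20 h (log2 0.76, SE 0.15, adjusted p = 0.356), and 3360.9 and 3059.1 in smoke, against 5699.3 in sham, at 6 h. Per1 was the only period gene above all sham arrays, at 729.8 and 774.0 in smoke, against 317.3 in sham at 20 h (log2 1.13, SE 0.25, adjusted p = 0.4), the highest sham signal being 627.6 at 6 h. Per2 read 550.3 and 694.5 in smoke, against 266.4 in sham (log2 1.08, SE 0.16, adjusted p = 0.22), and 732.3 in sham at 6 h. At 2 h Per2 had passed the test (log2 1.51, adjusted p = 0.0225 by limma).

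On the activator side the order was the reverse. Npas2, a partner of BMAL1 measured on type B, read 678.1 and 640.3 at 300 and 600 µg/l, against 1304.9 in sham (log2 -0.93, SE 0.30, adjusted p = 0.686). Bmal1 read 239.8 and 180.6 in smoke, against 330.6 in sham (log2 -0.56, SE 0.23, adjusted p = 0.848), and Clock read 416.0 and 358.1 in smoke, against 510.6 in sham (log2 -0.36, SE 0.15, adjusted p = 0.832). For Npas2 and Bmal1 both smoke arrays lay within the range of the sham arrays, and for Clock the 300 µg/l array did. Of 5 activators and their regulators, 4 were lower and 1, Rora, higher than sham in both smoke arrays at 20 h (another probe set of Rora had a change of -0.48), 0 lay outside all sham arrays, 0 passed, and the median was -0.36. Of 12 repressors and outputs, 10 were higher than sham in both smoke arrays at 20 h and 10 were lower in both at 6 h. Sham at 20 h was the lowest sham array for 10 of the 12. Only 2 lay above all sham arrays, Per1 and Bhlhe41, 0 lay below, 0 passed, and the median was 0.18 at 2 h, -0.62 at 6 h and 1.10 at 20 h. In the test of the difference from the earlier times, the genes with the smallest p on the higher side were Per3 (3.24, SE 0.46, adjusted p = 0.191), Tef (1.16, SE 0.19, adjusted p = 0.307), the zinc finger gene Zfp53, C3h11orf91, and Creb3l3, a transcription factor of lipid metabolism, and none of them passed. The hours of sampling are not given in the sources used here, and their part in these values was not tested.

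**Figure D4:**
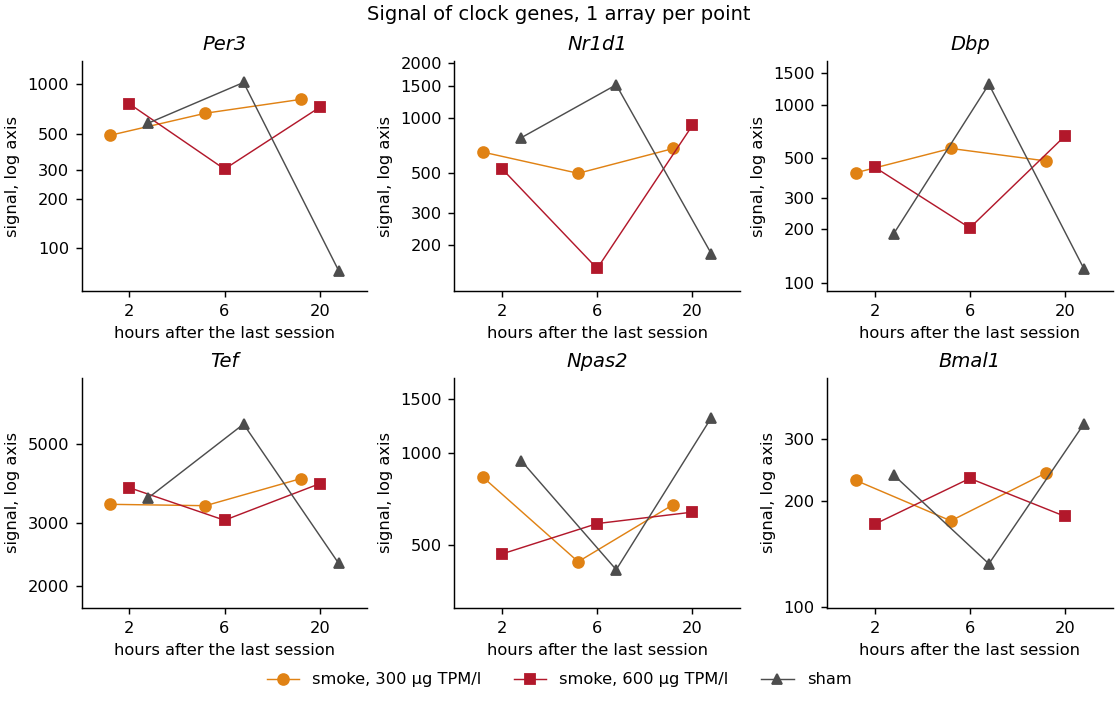
Signal (log axis, y) of 6 clock genes on each array at 2, 6 and 20 h after the last session (x axis), 1 array per point, with smoke at 300 µg TPM/l, smoke at 600 µg TPM/l and sham from left to right. The lines join arrays of 1 exposure, not the same animals. Sham Per3 reads 579.7, 1025.5 and 73.0 at the 3 times, and the smoke points lie between those extremes.

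The promoters of Nr1d1 and Tef are shown as examples of the clock genes that lay on opposite sides of sham at 6 and 20 h. Dbp, Nr1d2 and Per3 did so too, and their promoters are not shown, so the 2 examples say nothing of these genes as a set. Capitals mark the E-box CACGTG, a site of the BMAL1 complexes, which reads the same on both strands. It occurs in 5.59% of the 33469 promoter windows, and a match is a description of the sequence and shows no binding. RefSeq lists 2 starts of Nr1d1, and the window with a match is shown, while that of the other start holds 0 matches.
Nr1d1 (chr10:84229455-84229704, minus strand): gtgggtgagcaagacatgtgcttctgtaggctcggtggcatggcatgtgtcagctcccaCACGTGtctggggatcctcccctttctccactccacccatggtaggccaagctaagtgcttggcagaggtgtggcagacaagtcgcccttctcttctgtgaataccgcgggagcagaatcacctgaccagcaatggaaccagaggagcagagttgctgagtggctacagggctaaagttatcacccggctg
Tef (chr7:115206577-115206826, plus strand): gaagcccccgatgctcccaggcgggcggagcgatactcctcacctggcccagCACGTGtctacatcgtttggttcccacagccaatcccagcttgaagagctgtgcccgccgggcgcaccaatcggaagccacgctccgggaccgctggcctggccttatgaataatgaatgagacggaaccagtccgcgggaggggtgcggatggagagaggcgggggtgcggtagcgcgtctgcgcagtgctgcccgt

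Genes that glucocorticoids induce lay above sham in part. Of 9 measured, 5 were higher and 0 lower than sham in both smoke arrays, 3 lay above all sham arrays (Mt2A, Per1 and Tsc22d3), 0 lay below, and 0 passed. Over all genes, 33.1% were higher and 32.7% lower in both smoke arrays, and 10.2% lay above and 11.1% below all sham arrays. Tsc22d3, which encodes the leucine zipper protein GILZ, read 2393.7 and 2453.9 at 300 and 600 µg/l, against 1505.0 in sham at 20 h (log2 0.67, SE 0.13, adjusted p = 0.353). The sham arrays at 2 and 6 h, 2183.8 and 2336.0, came close to the smoke arrays. Fkbp5, a co-chaperone of the glucocorticoid receptor, read 473.9 and 668.6 in smoke, against 222.7 in sham at 20 h on type B (log2 1.17, SE 0.29, adjusted p = 0.522), and 618.6 in the type B sham array at 2 h that stood apart. Klf9, a zinc finger factor, read 2218.0 and 2733.4 in smoke, against 1835.9 in sham (log2 0.41, SE 0.17, adjusted p = 0.832), within the sham range. Dimmer probe sets gave a change of 0.60 for Fkbp5 and 0.79 for Klf9, also within it. The list's median was 0.18 at 2 h, 0.17 at 6 h and 0.41 at 20 h.

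On the lower side, the matrix list gave the most genes by number, 19 of 25. Some shorter lists had larger shares, such as 12 of 14 endothelial, 4 of 4 cardiac muscle and 3 of 3 red cell genes. Spon2, which encodes a secreted matrix protein, read 743.3 and 573.1 at 300 and 600 µg/l, against 1524.7 in sham at 20 h, with 1345.9 and 787.7 in sham at 2 and 6 h. Both smoke arrays were below all sham arrays, with a change of log2 -1.16 (SE 0.18, adjusted p = 0.22). At 2 h Spon2 had fallen by a margin that passed (log2 -1.61, adjusted p = 0.0248 by limma). Eln, the elastin gene, read 523.8 and 490.7 at 300 and 600 µg/l, against 967.2 in sham at 20 h (log2 -0.87, SE 0.13, adjusted p = 0.22), but sham at 6 h read 532.9, next to the smoke values. Another probe set of Eln, on type B, had a change of -0.64. Lox, which cross-links elastin and collagen, read 635.2 and 534.5 in smoke, against 797.5 in sham (log2 -0.42, SE 0.14, adjusted p = 0.701), though another probe set of Lox on type A had a change of 0.02. Col5a2, a fibrillar collagen chain, read 2091.1 and 2103.5 in smoke, against 2632.2 in sham (log2 -0.32, SE 0.12, adjusted p = 0.769).

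Of 25 matrix and fibroblast genes, 19 were lower and 3 higher than sham in both smoke arrays, 11 lay below and 0 above all 3 sham arrays, and 0 passed. Over all genes, 32.7% were lower in both smoke arrays and 11.1% lay below all sham arrays. Their median change was -0.26 at 2 h, -0.25 at 6 h and -0.16 at 20 h. The 3 fibroblast markers Col1a1, Dcn and Pdgfra summed to 5820.2 and 4732.7 at 300 and 600 µg/l, against 6161.6 in sham at 20 h. In sham at 2 and 6 h they summed to 5614.9 and 5583.2, below the 300 µg/l array at 20 h. The part of fibroblasts in these values was not tested.

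The other genes named on the lower side were Hoxa5, a homeobox factor of lung development, Nkain4, Bambi, a pseudoreceptor that damps TGF-beta signals, and Sumf2. Hoxa5 read 1034.0 and 953.2 at 300 and 600 µg/l, against 1744.4 in sham at 20 h (log2 -0.78, SE 0.12, adjusted p = 0.22), with 1299.6 and 1510.7 in sham at 2 and 6 h. Its smoke effect was 0.03 at 2 h and -0.09 at 6 h, and the difference at 20 h was -0.75 (95% interval -1.10 to -0.41, adjusted p = 0.568 by limma). Bambi read 385.2 and 353.2 in smoke, against 609.3 in sham (log2 -0.65, SE 0.13, adjusted p = 0.356). Nkain4 was dim in smoke, at 54.8 and 51.3 in smoke, against 258.5 in sham (log2 -1.58, SE 0.29, adjusted p = 0.26), and sham at 6 h was dim as well at 59.9. The probe sets of Sumf2 on type B disagreed, the brighter having a change of -0.92 and the other 0.18.

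Endothelial genes lay below sham in most cases. Of 14 measured, 12 were lower and 0 higher than sham in both smoke arrays, against 32.7% and 33.1% of all genes, 5 lay below and 0 above all sham arrays, 0 passed, and the median was -0.14 at 2 h, -0.20 at 6 h and -0.18 at 20 h. Gja4, a gap junction protein of arteries, read 1140.0 and 1045.1 at 300 and 600 µg/l, against 1688.0 in sham (log2 -0.61, SE 0.20, adjusted p = 0.694). The 4 endothelial markers on the arrays, of 5, summed to 6226.3 and 6360.9 in smoke, against 7059.8 in sham. Red cell genes were on the same side. The heme synthesis gene Alas2 read 1036.6 and 762.4 in smoke, against 1595.1 in sham (log2 -0.81, SE 0.20, adjusted p = 0.545), and the globin gene Hbb read 14525.3 and 14826.0 in smoke, against 17987.6 in sham (log2 -0.29, SE 0.11, adjusted p = 0.784), both below all sham arrays. The 4 cardiac muscle markers, all of them on the arrays, summed to 1141.0 and 814.9 at 300 and 600 µg/l, against 1237.4 in sham at 20 h. In sham at 2 and 6 h they summed to 1106.5 and 1686.3. Of these markers 3 were lower and 1 higher than sham in both smoke arrays, and 2 passed the filter.

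Genes of the alveolar lining stood near sham by their medians. Of 15 surfactant and alveolar type 2 genes, 5 lay above and 0 below all sham arrays (median 0.10), and of 11 alveolar type 1 genes 0 lay above and 2 below (median -0.06). Over all genes, 10.2% lay above and 11.1% below. Abca3, which loads surfactant lipid into lamellar bodies, read 4425.1 and 4425.6 in smoke, against 3597.5 in sham (log2 0.30, SE 0.15, adjusted p = 0.905). Cyp4b1, a P450 enzyme of airway club cells, read 4334.5 and 3623.1 in smoke, against 5739.8 in sham (log2 -0.53, SE 0.18, adjusted p = 0.699), below all sham arrays. Of 18 sterol and fatty acid synthesis genes 13 were higher and 2 lower than sham in both arrays (median 0.20), and of 9 MHC class II genes 6 were higher and 1 lower (median 0.16). Over all genes, 33.1% were higher and 32.7% lower. Dimmer probe sets of RT1-Bb and RT1-Db1 had changes of 1.81 and 0.9, above all sham arrays, while the highest change in the MHC class II list was 0.48. A dimmer probe set of Ciita had a change of 0.31, within the sham range. The immediate early gene Fos read 138.8 and 123.8 in smoke, against 249.9 in sham (log2 -0.73, SE 0.18, adjusted p = 0.545), below all sham arrays. Of the 16 immediate early genes measured, 4 were higher and 5 lower than sham in both smoke arrays, 1 lay above and 2 below all sham arrays, and the median was -0.02. The median of 28 proteasome genes was 0 and that of 31 respiratory chain genes -0.03. None of the genes in these lists passed the test (limma).

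**Figure D5:**
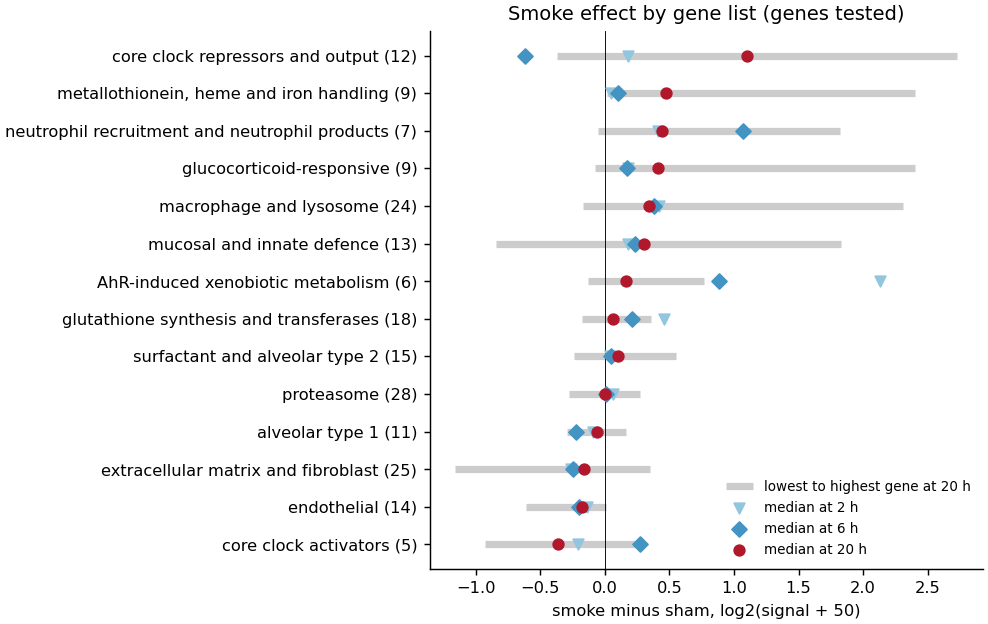
Median smoke effect (smoke minus sham, log2(signal + 50), x axis) of 14 gene lists (y axis, genes tested in brackets) at 2, 6 and 20 h, with grey bars from the lowest to the highest gene at 20 h. The aryl hydrocarbon receptor list stands at 2.13, 0.88 and 0.16 at the 3 times, the macrophage list at 0.42, 0.38 and 0.34, and the clock repressors at 0.18, -0.62 and 1.10.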

How the data were processed

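Lung RNA was turned into biotinylated cRNA for Affymetrix arrays, per the labels' protocols. What the authors deposited is 1 linear signal intensity per probe set and array, computed by MAS5 according to the submitters' processing notes. Signals were taken as log2(signal + 50), a scale that understates changes of dim genes. A probe set was kept if at least 3 of 9 arrays reached the type's 40th percentile (9901 on A, 9737 on B). Controls (57 per type) did not enter, and 100 probe sets found on A and B entered from A. Of the 19638, 13811 had 1 symbol in the platform annotation. Each of 10165 genes is shown by its probe set with the highest mean signal.

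The linear model (limma 3.58.1, R 4.3.3, moderated with an intensity trend, two-sided, Benjamini-Hochberg over both types, threshold 0.05) fitted 6 cells, smoke of both levels or sham at each time (3 residual degrees of freedom), and 4 cells with the sham arrays pooled (5 residual degrees of freedom). No condition has a replicate, so the p-values rest on how these arrays differ among themselves, which may be technical. The code was tested on simulated data. The comparison, the gene lists and the named genes were chosen with earlier results of these data known. The named genes are up to 6 per direction by the smallest p with both smoke arrays outside all sham arrays, per direction those past the threshold for the difference between times or, where none passed, the 5 with the smallest p, up to 6 per list by p, and a standing list that includes Cyp1a1, Chia and Bmal1. Alternatives covered normalization, pseudocount, filter, trend, adjustment, fold, and single arrays left out.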

Additional observations from a re-analysis of the deposited data

Results flagged for a closer look

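The smoke effect on Cyp1a1 differed between recovery times by limma's test of the difference. At 20 h it differed by -3.95 (log2) from the mean effect at 2 and 6 h, by -4.72 from that at 2 h and by -3.18 from that at 6 h, and both smoke arrays lay above sham at each time. For Aldh3a1 the difference from 2 h was -3.74, and that from 6 h did not pass (-1.20, adjusted p = 0.646 by limma).

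For 5 clock genes both smoke arrays lay at least 1.5-fold above sham at 20 h and at least 1.5-fold below it at 6 h. The changes at 20 h were 1.87 for Dbp, 1.87 for Nr1d1, 1.62 for Nr1d2, 2.73 for Per3 and 0.76 for Tef. The opposite sides themselves were not tested. The difference between the effects at 20 and 6 h did not pass for any of the 5 by limma: it was 3.64 for Dbp (adjusted p = 0.224), 4.12 for Nr1d1 (0.213), 2.64 for Nr1d2 (0.209), 3.82 for Per3 (0.161) and 1.58 for Tef (0.161).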

How the results depend on the processing

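Of the alternatives run, none gave more than 1 call against sham at 20 h. The count of 0 became 1 in the fit of the 20 h arrays alone (Per3) and 1 against the sham arrays of all 3 times (Chia). With 1 sham array left out, the count of 1 against all sham arrays was 0 to 0. The count of 1 difference from earlier times became 2 against 2 h alone. Probe sets at least 1.5-fold higher at both levels, 242, became 114 with pseudocount 200, 485 with no filter, 116 with the 60th percentile, 77 at 2-fold and 818 at a looser fold limit, and the 114 lower ones became 36, 449, 44, 11 and 710 under the same settings. Of those also outside all sham arrays, the 96 became 55, 197, 54, 35 and 344 and the 68 became 21, 228, 25, 8 and 353. These last alternatives, and leaving out the type B sham array at 2 h or the sham arrays at 6 h, were chosen after seeing the data.

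Of 491 values of 38 named genes at 20 h under alternatives, 475 kept their direction and side of the threshold, 14 reversed and 2 gained a call. As none of these genes had passed at 20 h, keeping the side of the threshold says little, and the count leaves out size. Without reversing, values ran from 0.0 to 1.74 for Nr1d2, 0.12 to 2.14 for Dbp, 0.1 to 0.69 for Tsc22d3 and 0.16 to 1.4 for Fkbp5. Against sham at 2 and 6 h only, which leaves out sham at 20 h, the changes were -0.01 for Per3, -0.45 for Nr1d1, -0.19 for Tef, 0.18 for Bmal1, 0.06 for Npas2, -0.19 for Klf9, 1.14 for S100a8 and 0.07 for Aldh3a1. Against all sham arrays S100a8 stood at 0.75 and Aldh3a1 at 0.02. With 1 smoke array at 20 h left out, the values ran from -0.14 to 0.05 for S100a8, from -0.14 to 1.02 for Cxcl1, from -0.05 to 1.63 for Mmp12 and from -0.31 to 0.17 for Aldh3a1. Of 167 differences from earlier times 4 reversed without the 300 µg/l array, and with either smoke array left out they ran from -0.51 to 0.09 for Chia, -0.71 to 0.24 for Lcn2, -0.40 to 0.29 for Gpnmb and -0.39 to 0.19 for Cd68. The cause of these reversals was not tested. Of 136 medians of 34 gene lists under alternatives, 123 moved by no more than the SD between both smoke levels and 13 by more, none of them across 0. For these medians only normalization and pseudocount were changed, and no array was left out. They therefore do not show how far a median depends on the sham array at 20 h. The neutrophil median of 0.44 ran from 0.39 to 0.48, matrix (-0.16) from -0.17 to -0.14 and cell cycle (0.16) from 0.11 to 0.19. Clock repressors (1.10) stood at 0.85 with pseudocount 200, and with quantile normalization mucosal defence (0.30) stood at 0.28 and alveolar type 1 (-0.06) at -0.14. Signals near or under the filter's level limit the dim genes, such as Ctsk and Nkain4. They also limit changes from a dim sham array at 20 h, as for Mt2A, Trem2, Nrg2 and Per3. No paired analysis was possible because no condition has more than 1 array of a type.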
